A study of Rattus norvegicus with 66 samples.

Results

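The insulin-like growth factor system was described by 10 genes measured in rat dorsal hippocampus on postnatal day 6, taken by gene symbol from 37777 annotated entries. The genes were the ligands Igf1 and Igf2, the receptors Igf1r, Igf2r and Insr, the docking protein gene Irs1, and the binding protein genes Igfbp2, Igfbp3, Igfbp4 and Igfbp5. Each symbol belonged to 1 entry, and all 10 genes passed the filter on low counts in every comparison. The RNA of 64 Long Evans pups (41 males, 23 females) was sequenced in 66 libraries, and 13 groups were formed by treatment and sex.

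All dams were treated and their pups were not dosed directly. Aroclor 1254, a commercial mixture of polychlorinated biphenyls, was given in chow at 5 mg/kg (Aro5: 6 males, 5 females) or 0.5 mg/kg (Aro0.5: 4 males). Bisphenol A, a chemical with estrogenic activity, was given by the same route at 5 mg/kg (BPA5: 7 males, 4 females) or 0.5 mg/kg (BPA0.5: 4 males). The organophosphate insecticide chlorpyrifos was injected subcutaneously at 3 mg/kg (CPF3: 7 males, 4 females) or 1 mg/kg (CPF1: 4 males). Controls received plain chow (CONF: 4 males, 5 females) or vehicle injections (CONSC: 5 males, 5 females), and they were combined within each sex. The labels name saline as the injected vehicle and the methods dimethyl sulfoxide. Low doses were available in males only. The tissue also contained some laterally adjacent neocortex.

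IGF1 and IGF2 are secreted peptides that act on the tyrosine kinase receptor IGF1R, which passes the signal through insulin receptor substrates such as IRS1 to the PI3K and AKT kinases. IGF2R binds IGF2 and carries it to lysosomes, and the insulin receptor binds insulin and, in one of its isoforms, IGF2. The binding proteins hold the peptides in the extracellular space and either limit or prolong their action. In the young brain the system is known for its part in growth, in survival of neurons and in myelination, with IGF2 made mainly by choroid plexus and meninges and IGF1 by subsets of neurons and glia.

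Members passed the test between the sexes and not between treated and control pups. The share of all genes called differed likewise, with 30.9% between control sexes and 0.195% or less in each treatment comparison. Irs1 was called between control sexes, whereas its larger log2 fold changes in high-dose males (0.55 to 0.69, SE 0.19 to 0.20) were not called. The adjusted p depends on the share of all genes that differ in a comparison. The calls therefore do not rank the sex and treatment differences of Irs1 by strength. In control pups Insr was lower in females, and Igfbp2, Igfbp4, Igfbp5 and Irs1 were higher in females. The calls of Igfbp5 and Irs1 depended on the fit, and that of Irs1 was lost when any of 11 of the 19 control pups was left out. No member passed the test in any of the 9 comparisons of treated with control pups. Across single pups Igf1 and Igfbp3 went with markers of thalamic neurons and Igf2 with markers of choroid plexus. Igfbp2 went with markers of endothelium and pericytes and with those of choroid plexus.

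The genome sequence before the start of the genes is shown for Insr, the member that was lower in control females, and for Igfbp5 and Igfbp2, a pair of binding protein genes that were higher in them and lie on the same chromosome in opposite orientation. Each run holds the 250 bases before the annotated start, 5′ to 3′ along the gene, from RefSeq on build GRCr8, which is not the build used for counting. Capitals mark matches to the GC box GGGCGG, the core of the xenobiotic response element GCGTG, the short estrogen response motif GGTCA, and the TATA box TATAAA, on either strand.
Insr, GRCr8 chr12:6128804-6129053, minus strand: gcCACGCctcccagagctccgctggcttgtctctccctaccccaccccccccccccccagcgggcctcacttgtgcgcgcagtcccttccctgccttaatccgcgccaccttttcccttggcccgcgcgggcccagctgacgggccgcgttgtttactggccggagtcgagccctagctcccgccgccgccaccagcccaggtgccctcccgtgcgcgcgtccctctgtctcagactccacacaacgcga
Igfbp5, GRCr8 chr9:81914188-81914437, minus strand: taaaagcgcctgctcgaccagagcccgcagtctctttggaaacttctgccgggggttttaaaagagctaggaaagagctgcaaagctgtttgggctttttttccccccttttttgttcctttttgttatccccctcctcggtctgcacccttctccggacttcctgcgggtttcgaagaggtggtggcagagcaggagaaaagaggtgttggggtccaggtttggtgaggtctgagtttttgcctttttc
Igfbp2, GRCr8 chr9:81864561-81864810, plus strand: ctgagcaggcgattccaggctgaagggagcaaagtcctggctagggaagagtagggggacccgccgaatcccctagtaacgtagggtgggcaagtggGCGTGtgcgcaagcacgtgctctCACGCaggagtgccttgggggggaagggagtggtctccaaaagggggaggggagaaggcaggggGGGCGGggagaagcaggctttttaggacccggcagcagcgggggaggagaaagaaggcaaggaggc
The Insr window had 1 match to GCGTG and the Igfbp2 window 2 matches to GCGTG and 1 to GGGCGG. The Igfbp5 window had no match to any of these letters. GC content was 71.2% before Insr, 64% before Igfbp2 and 51.6% before Igfbp5, with a median of 51.2% over the 33469 windows of all genes. Of all windows, 25.9% held GCGTG, 30.5% GGGCGG, 35.4% GGTCA and 12.9% TATAAA, in either orientation. Across the 10 members, GCGTG was found in at least 1 window of Igf2, Igf1r, Insr, Irs1, Igfbp2 and Igfbp3, GGTCA in Igf2 and Igf2r, and TATAAA only in Igfbp4. The full palindromic estrogen response element was in none of the members' windows and in 0.0239% of all windows. A match of such short letters describes the sequence and is not a binding site.

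Library totals ranged from 10644138 to 86206550 assigned reads, with a median of 20740650. Libraries of control males were shallower (10777044 to 18045602) than those of control females (15405133 to 33399641). Their median total (15232137) was also below that of treated males (23491757). The part of depth in the treatment comparisons was not tested. Levels are given as CPM, the reads of a gene scaled to a common library total. They cannot be compared between genes because transcript length was not used. In these bulk samples fewer cells of a type and less RNA per cell cannot be told apart. Library names of controls and of males were sorted by their spelling. Form A has the character _ after the group name and, in males, a capital Y, and form B has a small y in males and, in control females, a hyphen or nothing in place of that character. All 20 libraries of high-dose males had form B, whereas 9 of 10 libraries of control males and all 12 of low-dose males had form A, and the forms were mixed in control females (5 form A, 6 form B). Names of high-dose females all carry that character and were not sorted. What the forms stand for is not given in the sources used here, and in males form and high dose cannot be told apart. The genes listed as markers of hippocampal neurons were present in all pups, for example Prox1 (22.9 to 182 CPM) and Neurod6 (12.1 to 200 CPM). Not all of them are limited to hippocampus. Those listed for neocortex and thalamus were present as well, for example the thalamic marker Tcf7l2 (23.7 to 707 CPM).

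**Figure D1:**
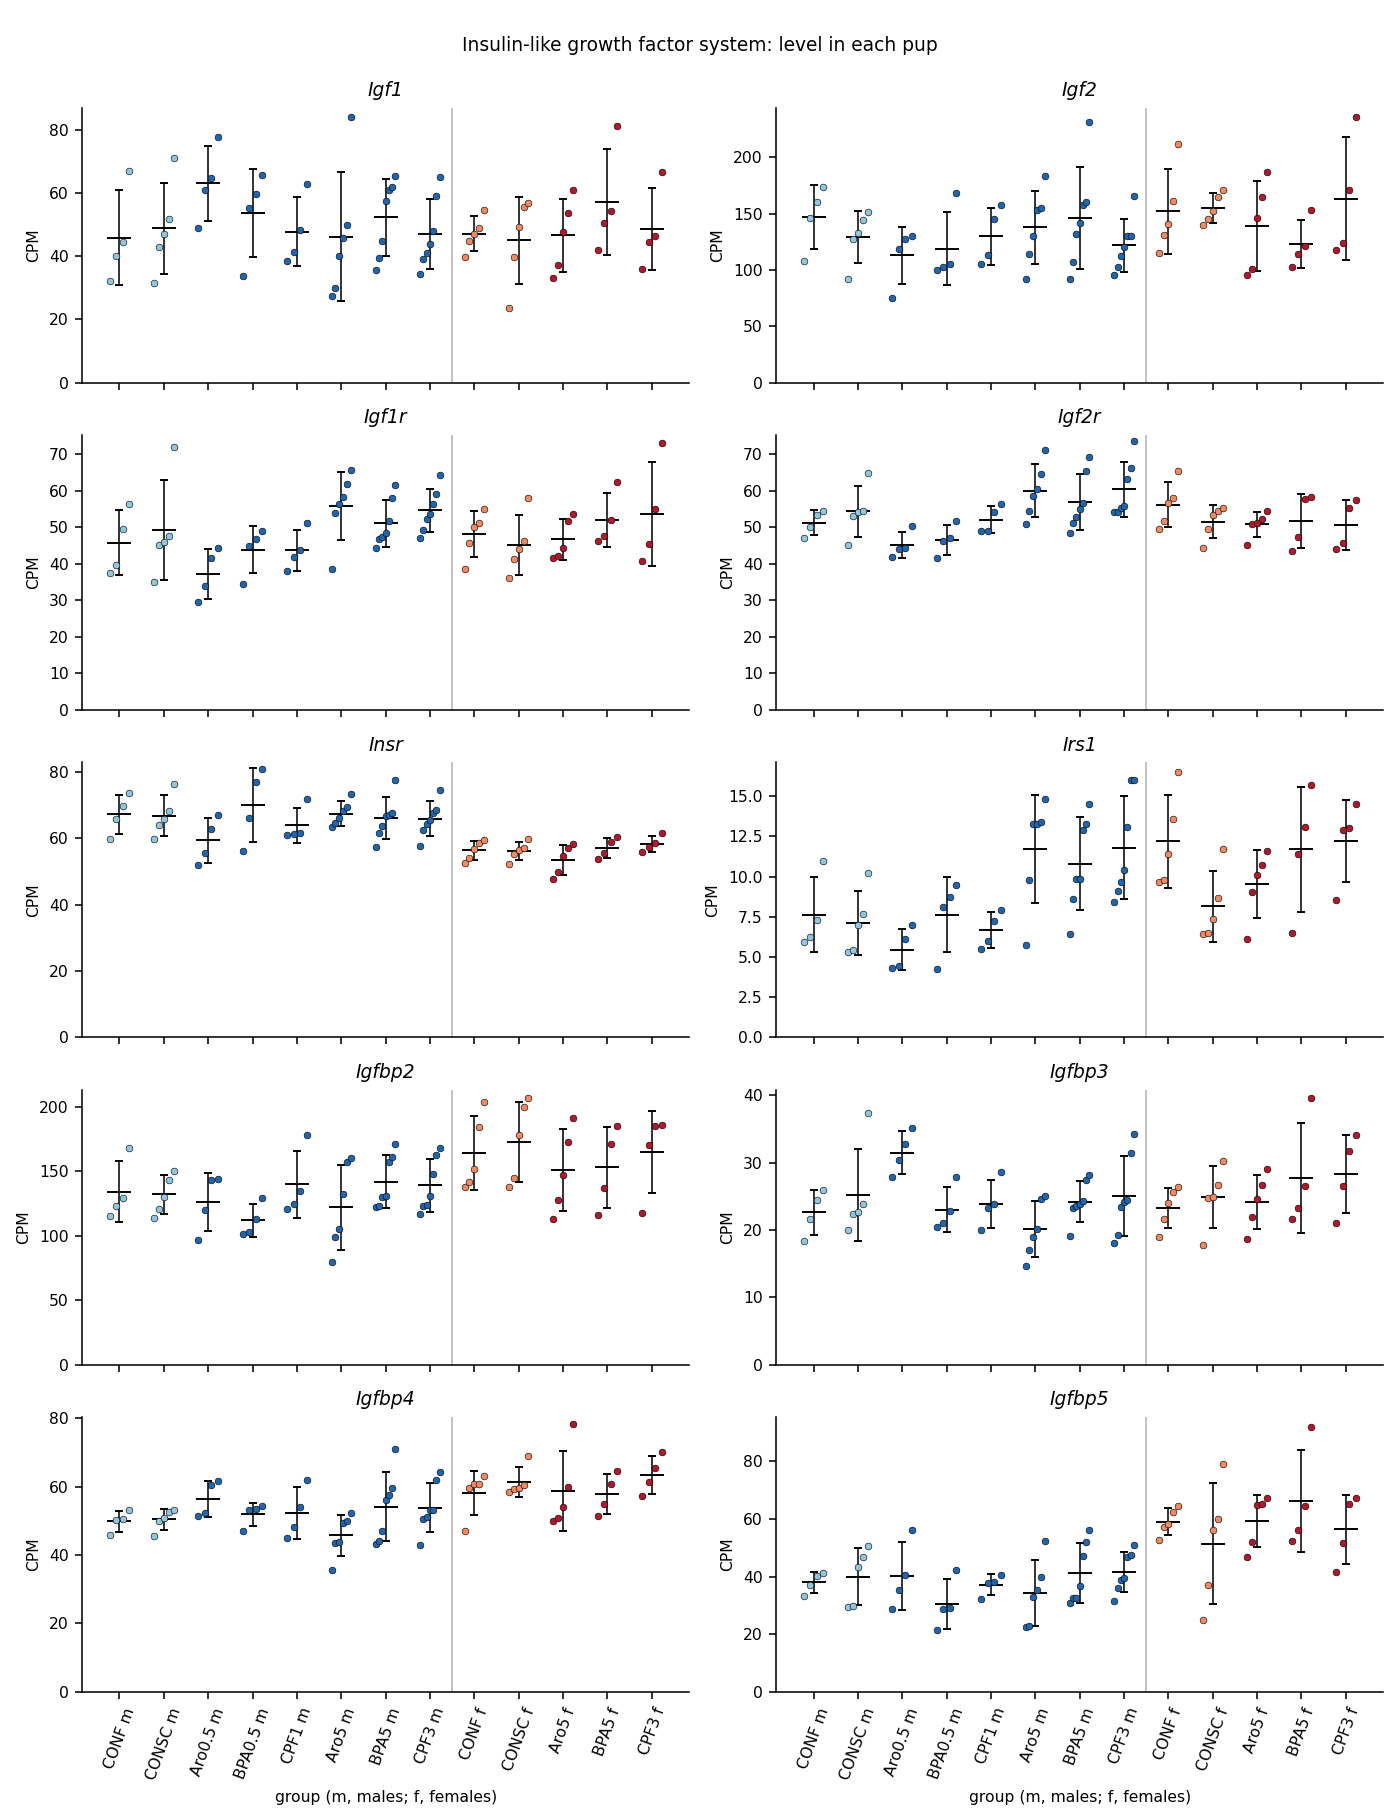
Level of each of the 10 genes in CPM (y axis, starting at 0) in every pup of the 13 groups (x axis). Points are pups, horizontal lines group means and bars SD; males are light (controls) or dark blue (treated), females orange (controls) or red (treated). The 5 female groups had the lowest means of Insr and the highest of Igfbp5, and the mean of Irs1 was higher in the 3 high-dose male groups than in the other male groups.

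Igf1, the main activator of IGF1R after birth, had a mean of 49.6 CPM over the 64 pups and ranged from 23.7 to 84.0 CPM. Its group means lay between 45.0 CPM in CONSC females and 63.0 CPM in Aro0.5 males. The single Aro0.5 males had 49.0, 61.0, 64.6 and 77.6 CPM, and the 9 control males 31.6 to 71.0 CPM with a median of 44.5 CPM. Of the Aro0.5 males, 1 lay above all control males and none below them. Igf2, the fetal ligand, had a mean of 137 CPM and ranged from 74.9 to 236 CPM. Its highest group mean was 163 CPM ± 54.6 (SD, n = 4) in CPF3 females and its lowest 113 CPM ± 25.5 (SD, n = 4) in Aro0.5 males. Along the order of the 13 group means, no step between neighbours was larger than the larger of their SDs for Igf1, Igf2 or any other member. With 13 ordered means such steps are small, also in members called between the sexes. They describe the order and do not show that the groups were alike.

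Igf1r ranged from 29.5 to 73.1 CPM, with its highest group mean in Aro5 males (55.8 CPM ± 9.39, SD, n = 6) and its lowest in Aro0.5 males (37.3 CPM ± 6.85, SD, n = 4). Igf2r, the clearance receptor of IGF2, had the same group at the bottom (45.2 CPM ± 3.60, SD, n = 4) and CPF3 males at the top (60.4 CPM ± 7.54, SD, n = 7). Insr was the steadiest of the 10 genes over all pups, with a coefficient of variation of 11.6%, and covered 47.8 to 80.9 CPM. All 5 female groups ranked below all 8 male groups for this gene, from 58.2 CPM ± 2.43 (SD, n = 4) in CPF3 females down to 53.5 CPM ± 4.56 (SD, n = 5) in Aro5 females. Irs1 was the most variable member, with a coefficient of variation of 34.1% and single pups from 4.25 to 16.5 CPM.

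Among the binding protein genes, Igfbp2 had a mean of 142 CPM (79.4 to 207 CPM) and Igfbp3, the main carrier in blood, a mean of 24.7 CPM (14.6 to 39.6 CPM). Igfbp4, which mostly restrains IGF action, averaged 54.7 CPM (35.6 to 78.2 CPM), and Igfbp5, a binding protein that also attaches to extracellular matrix, 45.4 CPM (21.5 to 91.8 CPM). The 5 female groups held the 5 highest means of Igfbp2, Igfbp4 and Igfbp5. The female means of Igfbp5 ran from 51.4 CPM in CONSC to 66.2 CPM in BPA5, and the male means from 30.4 CPM in BPA0.5 to 41.6 CPM in CPF3. Igfbp3 showed no such order, with Aro0.5 males at the top (31.5 CPM ± 3.13, SD, n = 4) and Aro5 males at the bottom (20.1 CPM ± 4.17, SD, n = 6).

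The comparison of 10 control females with 9 control males called 5 members, 4 higher and 1 lower in females, at an adjusted p under 0.05 in edgeR. Of all 15763 genes tested, 30.9% were called in this comparison. The median log2 fold change of the 10 members was 0.13, and that of all genes -0.02. Insr had 59.6, 65.8, 69.8 and 73.5 CPM in CONF males and 59.7, 64.1, 65.8, 68.3 and 76.3 CPM in CONSC males. CONF females had 52.5, 54.0, 56.8, 58.6 and 59.5 CPM, and CONSC females 52.3, 55.1, 56.4, 57.0 and 59.6 CPM. The highest female and the lowest male met at 59.6 CPM. The log2 fold change was -0.21 ± 0.05 (SE; adjusted p = 0.00174).

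Igfbp5 had 33.4, 37.1, 40.2 and 41.4 CPM in CONF males and 52.6, 57.3, 58.3, 62.3 and 64.3 CPM in CONF females. CONSC males had 29.5, 29.9, 43.4, 46.7 and 50.6 CPM, and CONSC females 25, 37.0, 56.1, 59.9 and 79.1 CPM. The feeding controls did not overlap between the sexes, whereas the injection controls did, since 2 CONSC females lay within or below the male range. With both kinds of control the log2 fold change was 0.54 ± 0.16 (SE; adjusted p = 0.0116). Igfbp2 averaged 169 CPM ± 28.7 (SD, n = 10) in control females and 133 CPM ± 18 (SD, n = 9) in control males, which differed by 0.39 ± 0.09 on the log2 scale (SE; adjusted p = 0.00248). Igfbp4 averaged 59.8 CPM ± 5.41 (SD, n = 10) and 50.1 CPM ± 2.84 (SD, n = 9), which differed by 0.29 ± 0.06 on the log2 scale (SE; adjusted p = 0.000438). In Igfbp4, 9 of 10 control females lay above all control males, and CONF female N4-3x (47.0 CPM) lay within the male range.

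Irs1 averaged 10.2 CPM ± 3.22 (SD, n = 10) in control females and 7.34 CPM ± 2.03 (SD, n = 9) in control males, which differed by 0.50 ± 0.18 on the log2 scale (SE; adjusted p = 0.0386). The groups overlapped widely (6.41 to 16.5 CPM against 5.28 to 11.0 CPM), and the call was lost in 11 of 19 fits that left out 1 control pup (adjusted p up to 0.0813). These pups were CONF females N1-8x, N4-3x and N8-1x, CONSC female 8-2x, CONF males N3-4y, N4-7y and N5-2y, and CONSC males 6-5y, 8-4y, 11-4y and 13-1y. The ligands and the remaining members were not called. Igf2 differed by 0.20 ± 0.11 on the log2 scale (SE; adjusted p = 0.18), and Igf1, Igf1r, Igf2r and Igfbp3 had values between -0.00 and 0.06.

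The same question was put to the high-dose pups, in which the sexes were compared within each treatment in a fit of 33 pups that shared none with the controls. In Aro5 pups 3 members were called (Insr, Igfbp4 and Igfbp5), where 25.1% of all genes were. Igfbp5 was the only member called in BPA5 pups (3.93% of all genes), and no member was called in CPF3 pups (7.82% of all genes). In CPF3 pups 3 members had an unadjusted p under 0.05, beside 4397 of all 17256 genes. Insr was lower in females in all arms, with log2 fold changes of -0.29 ± 0.06 in Aro5 (SE; adjusted p = 0.00301), -0.16 ± 0.07 in BPA5 (adjusted p = 0.187) and -0.12 ± 0.07 in CPF3 (adjusted p = 0.24). The 5 Aro5 females (47.8, 49.8, 54.5, 57.0 and 58.3 CPM) lay below all 6 Aro5 males (63.3 to 73.4 CPM, median 67.0 CPM). Igfbp5 was higher in females by 0.83 ± 0.20 on the log2 scale in Aro5 (SE; adjusted p = 0.00429), by 0.73 ± 0.20 in BPA5 (adjusted p = 0.0353) and by 0.50 ± 0.20 in CPF3 (adjusted p = 0.122). The 4 BPA5 females had 52.3, 56.1, 64.6 and 91.8 CPM and the 7 BPA5 males 30.7 to 56.0 CPM (median 36.8 CPM), so that 3 of 4 females lay above all males. The BPA5 call was lost when female 79-4x or 85-4x or male 79-2y, 86-9y, 88-3y or 90-2y was left out (adjusted p up to 0.247).

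Igfbp4 was called in Aro5 pups (log2 fold change 0.40 ± 0.13, SE; adjusted p = 0.0207), and the call was lost when 1 pup per litter was used (adjusted p = 0.117) or when female 120-3x, male 120-1y or male 120-2y was left out. Igfbp2 was higher in females by 0.34 ± 0.16 in Aro5, 0.15 ± 0.17 in BPA5 and 0.29 ± 0.17 in CPF3 (log2, SE), and none of these passed the test (adjusted p = 0.116 to 0.699). In Aro5 pups it was called within the time window from 10.30 until 13.20 h (0.66, adjusted p = 0.00476) and without male 108-1y (0.44, adjusted p = 0.0376). Irs1 did not keep its direction, with -0.25 ± 0.23 in Aro5, 0.15 ± 0.24 in BPA5 and 0.08 ± 0.24 in CPF3. The test of the difference itself, the sex by treatment interaction, called no member for Aro5, BPA5 or CPF3 (17, 7 and 8 of 17282 genes called; 0.0984%, 0.0405% and 0.0463%). In these interactions 2, 0 and 1 members had an unadjusted p under 0.05, beside 1541, 482 and 967 of all genes. The largest value was that of Irs1 with Aro5, a log2 difference of -0.77 ± 0.31 (SE; adjusted p = 0.429).

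**Figure D2:**
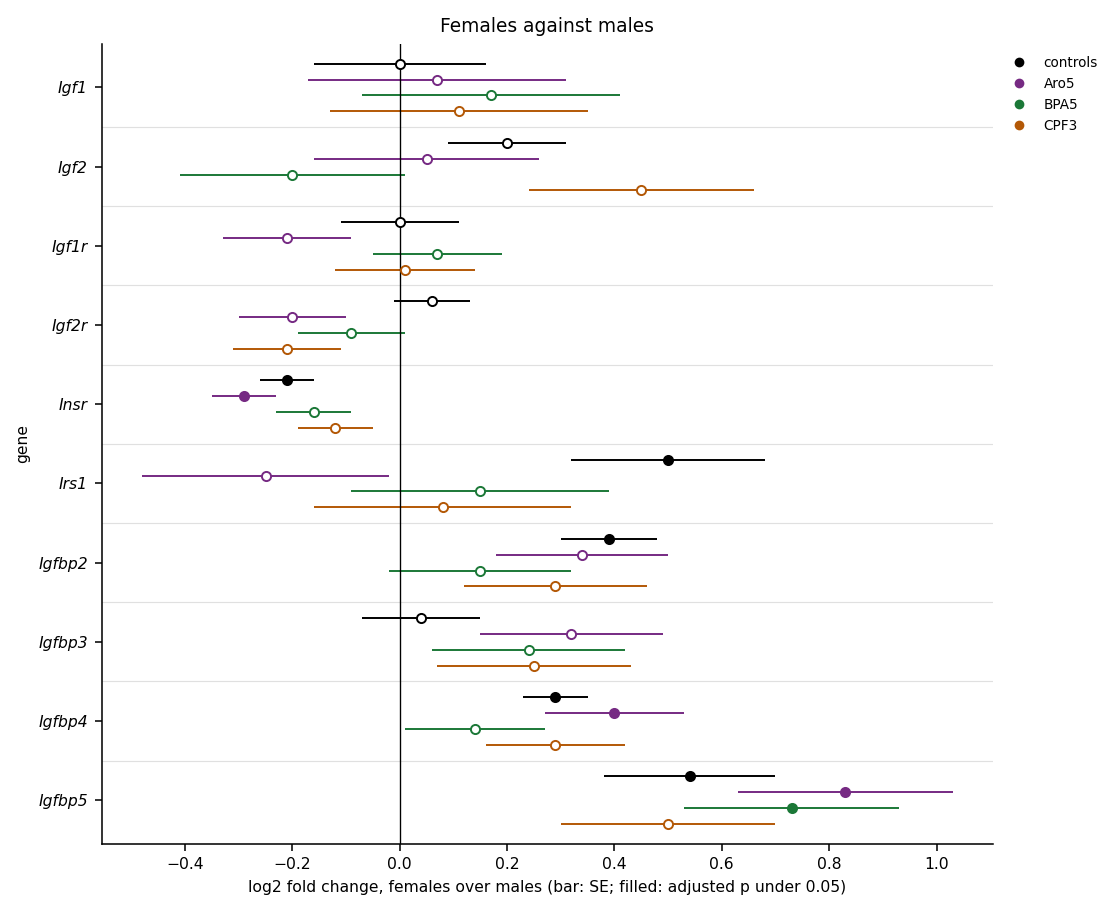
Log2 fold change of females over males (x axis) for each gene (y axis) in controls and in the 3 high-dose treatments; bars are SE and filled points passed an adjusted p under 0.05. Insr lay left of 0 and Igfbp5 right of 0 in all 4 arms, between -0.29 and -0.12 and between 0.50 and 0.83.

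The same pups were also compared within litters that held both sexes. The female value of Insr was below the male value in 7 of 7 control litters and in 11 of 11 high-dose litters, with differences (female minus male) of -20.9 to -2.78 CPM and of -23.6 to -1.98 CPM. Igfbp5 was higher in the female in 6 of 7 control litters and in 11 of 11 high-dose litters, with median differences of 25.2 and 14.0 CPM. Igfbp4 was higher in the female in 6 of 7 and 9 of 11 litters, and Igfbp2 in 5 of 7 and 8 of 11. Igf1r and Igf2r were lower in the female in 3 of 7 control litters each and in 10 and 9 of 11 high-dose litters, and the interaction of sex with treatment called neither gene. When litters entered a limma-voom fit as replicate block, the sex difference in controls was called for Insr, Igfbp2 and Igfbp4, and no longer for Igfbp5 (0.47, adjusted p = 0.0634) and Irs1 (0.44, adjusted p = 0.132). In limma-voom with no litter term, chosen after seeing the data, Igfbp5 was called (0.48, adjusted p = 0.0379) and Irs1 was not (0.44, adjusted p = 0.101).

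The forms of library names were shared unevenly between the sexes of control pups, since 9 of 10 male and 5 of 11 female libraries had form A. The fit with the form as a covariate used single libraries in place of pups. Both libraries of CONF male N2-2y and of CONF female N4-3x thus counted as replicates. In that fit Insr (-0.25, adjusted p = 0.00239), Igfbp2 (0.37, adjusted p = 0.0236) and Igfbp4 (0.24, adjusted p = 0.0244) were called, and Igfbp5 (0.37, adjusted p = 0.0969) and Irs1 (0.33, adjusted p = 0.239) were not. In libraries of form A alone (9 male, 5 female) Insr and Igfbp2 were called, and Igfbp4 had 0.23 (adjusted p = 0.0613). The part of the form in the sex difference was not tested. Igfbp5 had 46.9 CPM ± 15.8 (SD, n = 5) in form A and 61.9 CPM ± 8.96 (SD, n = 6) in form B libraries of control females. The libraries of CONF male N2-2y, one of each form, differed in Igfbp2 (97.1 and 159 CPM, from 1599 and 2823 reads) and in Insr (80.0 and 67.5 CPM, from 1317 and 1197 reads). In Igfbp2 this difference between libraries of the same pup was 1.64-fold. The libraries of CONF female N4-3x carry the same litter and pup number in the labels but different times of day (12.09 and 11.55 h), and were summed as 1 pup. They were closer, with 143 and 128 CPM for Igfbp2 and 57.5 and 55.7 CPM for Insr.

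Markers of other cells also differed between control females and control males, and the counts below stand beside the 30.9% of all genes called. Of 7 markers of endothelium and pericytes, 2 rose in females (Cldn5 and Slc2a1), and their summed level was 216 to 255 CPM in females and 187 to 228 CPM in males. Of 6 markers of the oligodendrocyte lineage, 3 rose (Olig1, Sox10 and Mbp) and Pdgfra fell, with sums of 464 to 636 CPM in females and 429 to 561 CPM in males. Of 8 tested markers of leptomeningeal fibroblasts 2 rose (Col1a1 and Col3a1), with sums of 209 to 457 CPM and 180 to 307 CPM, while Col1a2 was listed at 0 in all pups. In the other lists, 3 of 10 hippocampal neuron markers (Neurod2, Wfs1 and Rbfox3) and 2 of 5 blood cell markers (Hba1 and Hba2) rose, 2 of 6 astrocyte markers (Slc1a3 and Gja1) fell, and 1 marker each of neocortical neurons (Tbr1), thalamic neurons (Lhx2) and interneurons (Sst) rose. No marker of choroid plexus or microglia was called. Over the 64 pups, the endothelial sum had a Pearson r of 0.72 with Igfbp2, 0.68 with Igfbp4, 0.51 with Igfbp5 and -0.65 with Insr on the log2(CPM + 1) scale. These r include the difference between the sexes. With each group centred on its own mean they were 0.61, 0.63, 0.29 and -0.53. The endothelial list was not alone in this, as the oligodendrocyte lineage sum had an r of -0.61 with Insr (-0.53 when centred). The part of these cells and of the library depth in the sex difference was not tested.

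Other genes of the pathway were taken from lists of 55 further genes, 49 of which passed the filter in the control comparison. Of these 49, 11 were higher and 5 lower in control females, a share close to the 30.9% of all genes called. In the PI3K-AKT-mTOR branch 7 of 22 genes rose and 3 fell. The regulatory subunit gene Pik3r2 had 223 CPM ± 19.1 (SD, n = 10) in females and 166 CPM ± 18.3 (SD, n = 9) in males, which differed by 0.47 ± 0.07 on the log2 scale (SE; adjusted p = 1.46e-05). Eif4ebp1, a repressor of translation that mTOR switches off, was higher by 0.66 ± 0.11 (SE; adjusted p = 4.26e-05), and Foxo3, a transcription factor that AKT keeps out of the nucleus, by 0.54 ± 0.15 (SE; adjusted p = 0.00945). Akt1 (0.25), Akt2 (0.22), Rptor (0.16) and Tsc2 (0.12) were higher as well on the log2 scale. The catalytic subunit gene Pik3ca fell by 0.19, Pik3r3 by 0.36 and Rheb, the GTPase that activates mTOR, by 0.18 on that scale. The list thus held members of both signs, and its median log2 fold change was -0.00.

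Outside that branch, Irs2 (0.19 on the log2 scale) and the phosphatase gene Ptpn1 (0.20) were the 2 of 8 receptor substrates and adaptors that rose. Igfbp6, a binding protein that prefers IGF2, rose by 0.73 ± 0.22 (SE; adjusted p = 0.0136) from a level near 1 CPM (0.990 CPM in males, 1.59 CPM in females). H19, the non-coding RNA imprinted together with Igf2, was the only one of 7 imprinted growth genes called, at 4.89 CPM ± 1.02 (SD, n = 10) in females and 3.72 CPM ± 1.17 (SD, n = 9) in males (adjusted p = 0.0397). Igf2bp3, which binds Igf2 mRNA, fell by 0.25 and Ide, the insulin-degrading protease, by 0.12 on the log2 scale. No further gene of the hormone and receptor list was called.

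In the high-dose pups, 12 of 51 further pathway genes differed between the sexes with Aro5 (5 higher and 7 lower in females), 1 with BPA5 and 3 with CPF3. These shares were below those of all genes called (25.1%, 3.93% and 7.82%). Foxo3 was higher in females in BPA5 (0.66 ± 0.15, log2, SE; adjusted p = 0.00651) and CPF3 (0.67 ± 0.15; adjusted p = 0.00531), as it was in controls. With Aro5 the calls included H19 (6.11 CPM ± 1.60 in 5 females, 2.98 CPM ± 0.728 in 6 males), Irs2, Tsc2, Eif4ebp1 and Eif4ebp2 as higher, and Pik3ca, Pik3r1, Rictor, Pdpk1, Gsk3b and Stc1 as lower in females. Eif4ebp2 was higher in CPF3 females (52.3, 56.3, 60.3 and 64.9 CPM) than in all CPF3 males (38.5 to 47.8 CPM), and the difference was 0.52 ± 0.08 on the log2 scale (SE; adjusted p = 5.29e-05). Igfbp1 was called in CPF3 pups through female 43-3x, which had 4.81 CPM where the other CPF3 females had 0.237 to 0.534 CPM. Without this pup the log2 fold change of Igfbp1 was 0.36 (adjusted p = 0.703).

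The question of the study was whether the chemicals change gene expression in the developing hippocampus. At the high doses in males, no member was called for Aro5, BPA5 or CPF3, where 0.195%, 0.189% and 0.159% of 16393 genes were called. In these comparisons 3, 1 and 2 members had an unadjusted p under 0.05, beside 1929, 1492 and 2064 of all 16393 genes. DESeq2 called none of the members. The study's own analysis called far more genes at these doses in males, and it reported IGF among the growth factors without a change there. Irs1 was the member with the largest values. It had 5.73, 9.79, 13.3, 13.3, 13.4 and 14.8 CPM in Aro5 males. In BPA5 males it ranged from 6.43 to 14.5 CPM (median 9.87 CPM) and in CPF3 males from 8.41 to 16.0 CPM (median 10.4 CPM). CONF males had 5.92, 6.25, 7.28 and 11.0 CPM and CONSC males 5.28, 5.41, 6.97, 7.70 and 10.2 CPM. In each high-dose group 3 or 4 pups lay above all control males, and the groups overlapped.

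On the log2 scale the difference in Irs1 was 0.68 ± 0.20 for Aro5 (SE; adjusted p = 0.199), 0.55 ± 0.19 for BPA5 (adjusted p = 0.447) and 0.69 ± 0.19 for CPF3 (adjusted p = 0.165). The 95% intervals ran from 0.29 to 1.06, from 0.17 to 0.92 and from 0.31 to 1.06. The comparisons share the 9 control males. When only pups taken from 10.30 until 13.20 h were used, Irs1 (0.99, adjusted p = 0.0263) and Igf1r (0.47, adjusted p = 0.0297) were called for Aro5. That fit had 4 Aro5 and 6 control males and called 818 genes. Its Aro5 males 120-1y and 120-2y came from the same litter. Without Aro5 male 108-1y, which had the lowest Irs1 level of its group and was dissected at 15.45 h, Irs1 was called for Aro5 (0.81, adjusted p = 0.0393).

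In males Irs1 levels were also compared by the form of the library name, which cannot be told apart from high dose. The 9 form A libraries of control males had 5.28 to 10.7 CPM (median 6.97 CPM) and the 12 libraries of low-dose males, all form A, 4.25 to 9.49 CPM (median 6.54 CPM). The 20 form B libraries of high-dose males had 5.73 to 16.0 CPM (median 11.7 CPM). The only form B library of a control male, from CONF N2-2y, had 11.3 CPM, and the form A library of the same pup had 10.7 CPM. In control females the medians were 8.70 CPM in 5 form A libraries and 11.6 CPM in 6 form B libraries, with wide overlap. With form as a covariate, the log2 fold changes of Irs1 were 0.08 for Aro5, -0.05 for BPA5 and 0.09 for CPF3, and no gene was called. That fit used single libraries and rests on the only form B library of a control male, so it says nothing of the stability of the high-dose values.

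**Figure D3:**
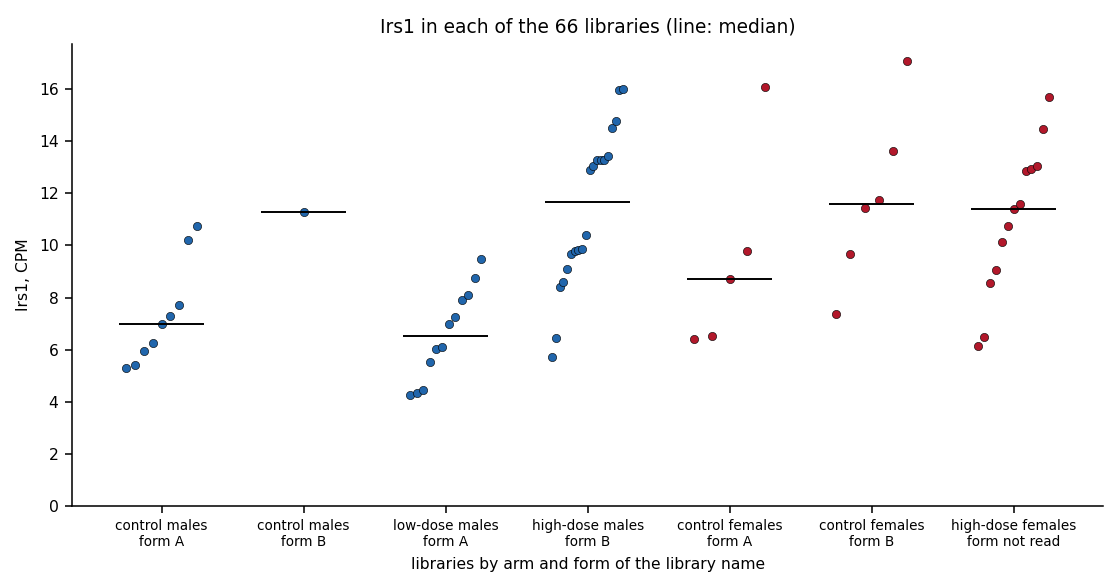
Irs1 in CPM (y axis, starting at 0) in each of the 66 libraries, grouped by arm and by the form of the library name (x axis); lines are medians. Form A libraries of control and low-dose males had medians of 6.97 and 6.54 CPM, form B libraries of high-dose males a median of 11.7 CPM.

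Igf1r and Igf2r had higher means in Aro5 and CPF3 males than in control males, with log2 fold changes of 0.24 ± 0.12 and 0.20 ± 0.11 (SE) for Igf1r and of 0.20 ± 0.08 in both groups for Igf2r. None passed the test (adjusted p = 0.345 to 0.452). All 7 CPF3 males lay above the median of control males in both receptors. The summed level of 6 neocortical neuron markers was 477 to 807 CPM in Aro5 males, 386 to 845 CPM in CPF3 males and 278 to 627 CPM in control males, and over all pups it had an r of 0.69 with Igf1r and 0.75 with Igf2r. The part of neocortical tissue in these values was not tested. Insr differed from controls by 0.03 or less in either direction in all 3 high-dose groups, with SE of 0.06.

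At the low doses in males no member was called (0.124% of 16139 genes for Aro0.5, 0.0434% for BPA0.5, 0% for CPF1). With Aro0.5, 4 members had an unadjusted p under 0.05, and with BPA0.5 and CPF1 none. Of all genes, 2988, 1384 and 322 had one for Aro0.5, BPA0.5 and CPF1. Aro0.5 males had Igfbp3 levels of 27.8, 30.4, 32.7 and 35.2 CPM, and control males 18.3 to 37.3 CPM with a median of 22.7 CPM. The only control male in or above the Aro0.5 range was CONSC 8-4y (37.3 CPM). The log2 fold change was 0.46 ± 0.14 (SE; adjusted p = 0.13), and without CONSC 8-4y it was 0.57 with an adjusted p of 0.0151, in a fit that called 322 genes in place of 20. Igf1 differed by 0.48 ± 0.19 (SE; adjusted p = 0.207) and Igfbp4 by 0.24 ± 0.07 (SE; adjusted p = 0.14). Igf1r, Igf2r and Irs1 had negative values of -0.29 ± 0.14, -0.16 ± 0.07 and -0.38 ± 0.20 (log2, SE; adjusted p = 0.247 to 0.314).

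Aro0.5 males also stood high in thalamic markers and low in neocortical ones. The summed level of 6 thalamic neuron markers was 715 to 1146 CPM (median 1075 CPM) in Aro0.5 males and 452 to 1211 CPM (median 607 CPM) in control males. The neocortical sum was 224 to 410 CPM (median 261 CPM) against 278 to 627 CPM (median 447 CPM). No marker of either list was at 0 in any pup. The part of the dissected region in the Aro0.5 values was not tested. BPA0.5 and CPF1 males differed from controls by -0.33 to 0.20 and by -0.14 to 0.09 on the log2 scale over the 10 members.

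In females no member was called for Aro5, BPA5 or CPF3, and 0% of 16992 genes were called in each comparison. No member had an unadjusted p under 0.05, while 548, 694 and 1493 of all genes had one, and DESeq2 called 1, 1 and 3 genes but no member. The members' log2 fold changes lay between -0.15 and 0.12 for Aro5, between -0.31 and 0.33 for BPA5 and between -0.07 and 0.28 for CPF3. Irs1, the member with the largest values in high-dose males, had -0.08 ± 0.21, 0.20 ± 0.23 and 0.27 ± 0.23 (log2, SE). The 95% intervals ran from -0.50 to 0.34 for Aro5, from -0.25 to 0.65 for BPA5 and from -0.18 to 0.72 for CPF3 females. The value of the males (0.68, 0.55 and 0.69) lay outside the interval for Aro5 and inside those for BPA5 and CPF3. That reading leaves out the spread of the males, and the edgeR test of the sex by Aro5 interaction did not call Irs1 (adjusted p = 0.429). The kind of control made no called difference either. Between injection and feeding controls no member was called in males (0.013% of 15387 genes called) or females (0% of 16618 genes called). These comparisons held 4 or 5 pups per group. The study reported lower body weights for pups of injection controls than for pups of feeding controls. Irs1 was 8.15 CPM ± 2.21 in CONSC and 12.2 CPM ± 2.88 in CONF females (SD, n = 5 each), which differed by -0.60 ± 0.20 on the log2 scale (SE; adjusted p = 0.85). It was the only member with an unadjusted p under 0.05 there, beside 713 of all genes.

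**Figure D4:**
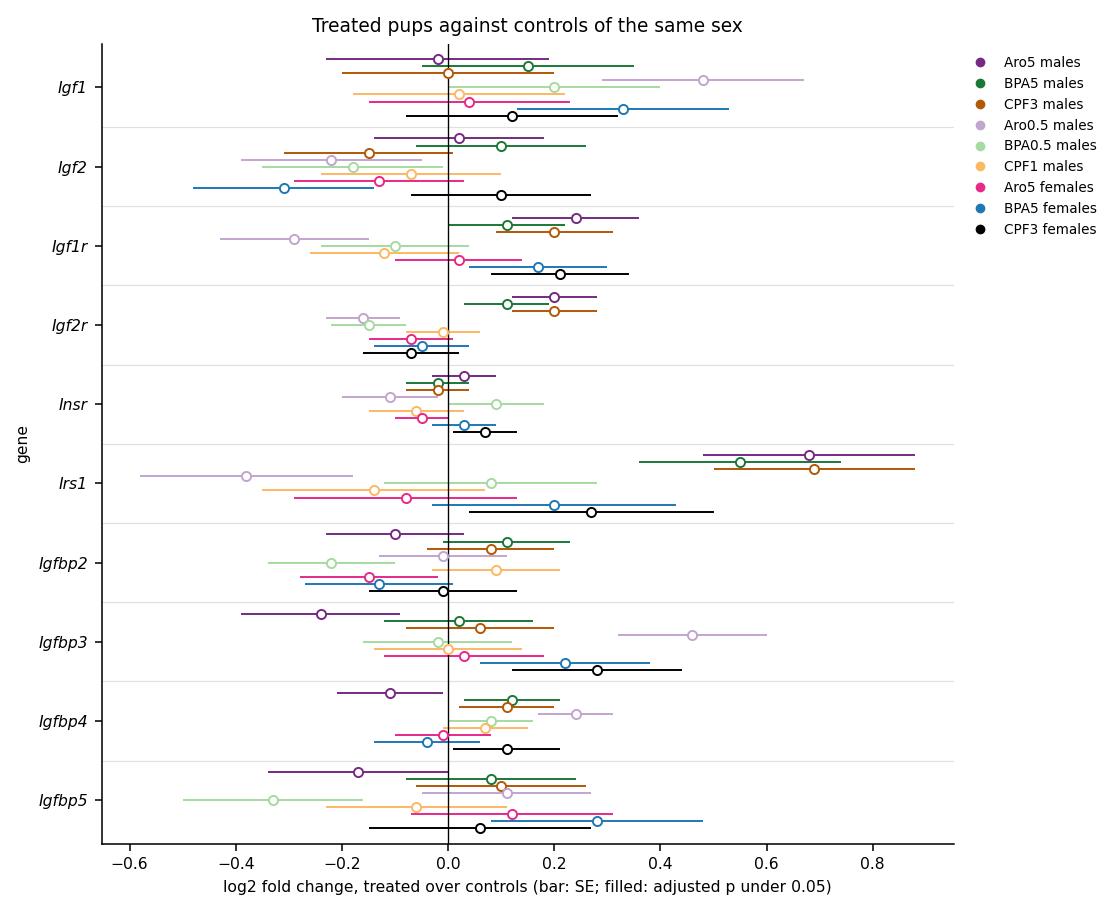
Log2 fold change of treated over control pups of the same sex (x axis) for each gene (y axis) in the 9 treatment groups; bars are SE, and open points did not pass an adjusted p under 0.05. No point is filled, and the 3 high-dose male values of Irs1 (0.55 to 0.69) lay farthest from 0.

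No further pathway gene was called in any of the 9 treatment comparisons, the 3 interactions or the control comparisons within a sex. The gene with the smallest p was H19 for BPA5 males (0.74 ± 0.25, log2, SE; adjusted p = 0.439) and Igfbp7 for CPF3 males (-0.21 ± 0.08; adjusted p = 0.307). In Aro0.5 males it was Foxo1, a transcription factor restrained by AKT (-0.77 ± 0.19; adjusted p = 0.115). It was Gab1 in BPA0.5 males, Htra1 in CPF1 males, Tsc2 in Aro5 females, Plagl1 in BPA5 females and Eif4ebp2 in CPF3 females, with adjusted p of 0.431 to 0.999.

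Within the system, several members varied together across pups. Over the 64 pups Igf1 and Igfbp3 had an r of 0.69 on the log2(CPM + 1) scale, Igf1r and Igf2r 0.74, Igf1r and Irs1 0.72, Igf2r and Irs1 0.62, Igfbp2 and Igfbp4 0.65, and Igf2 and Igfbp2 0.57. The ligands went in opposite directions, with r = -0.51. These values describe pups that share groups, depth and dissection. After each of the 13 groups was centred on its own mean, Igf1 and Igfbp3 had an r of 0.70, Igf1 and Igf2 one of -0.50 and Igf1 and Igfbp5 one of 0.72, which was 0.48 before.

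Cell-type markers followed the same lines. The thalamic sum, which ran from 151 to 1255 CPM over pups, had an r of 0.76 with Igf1, 0.79 with Igfbp3 and 0.51 with Igfbp5. The choroid plexus sum, 778 to 4614 CPM with Ttr (transthyretin) at 722 to 4369 CPM, had an r of 0.69 with Igf2, 0.58 with Igfbp2 and -0.67 with Igf1. One of its 8 markers, Otx2, was at 0 in 56 of 64 pups. Centred on group means the values were 0.76, 0.80 and 0.65 for the thalamic sum and 0.75, 0.77 and -0.69 for the choroid plexus sum. The sum of endothelium and pericyte markers had an r of 0.72 with Igfbp2, and of 0.61 when centred.

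**Figure D5:**
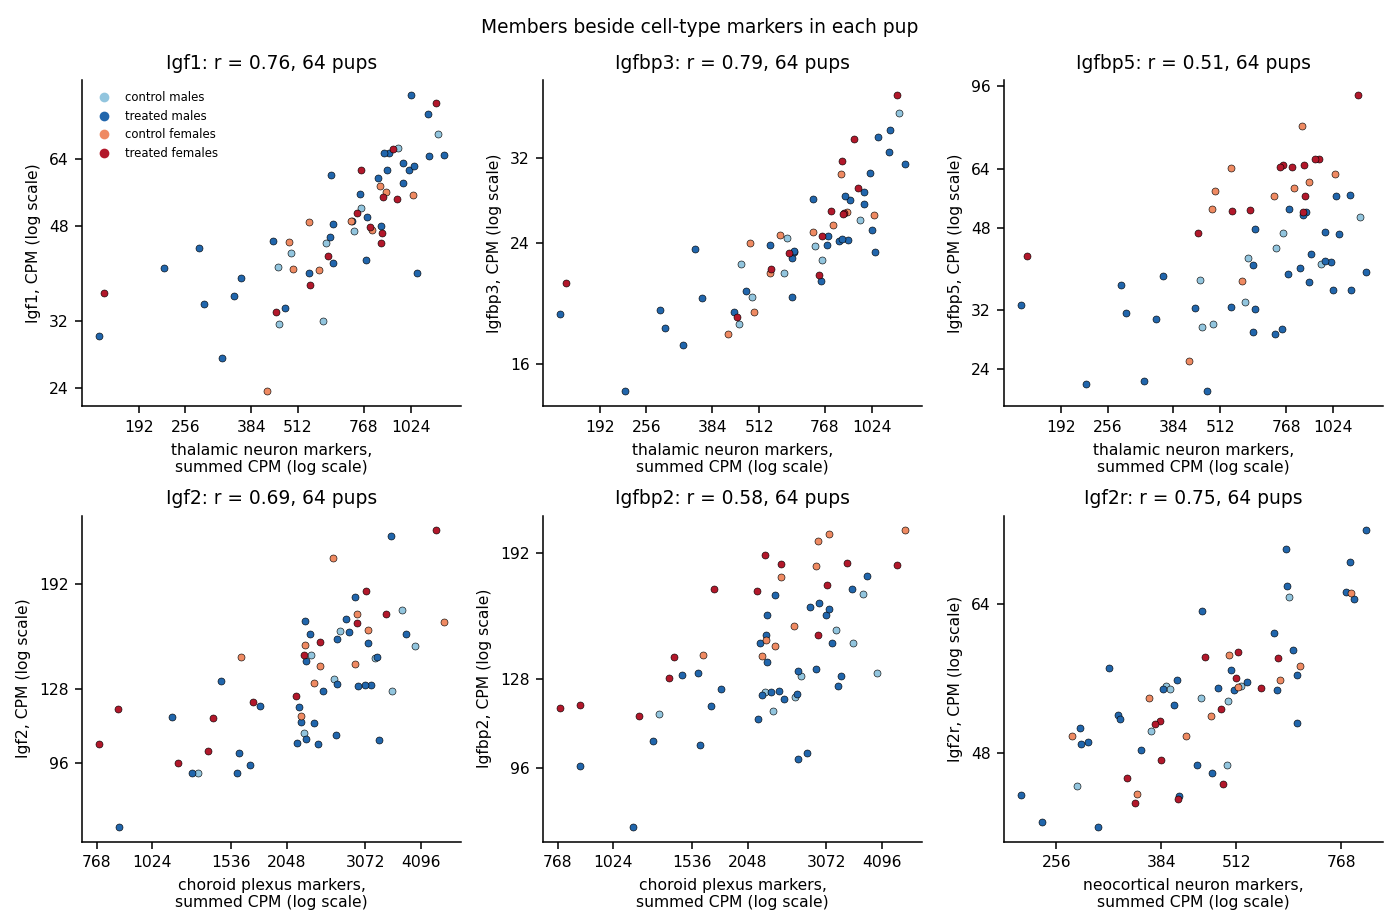
Level of 6 members (y axis, CPM, log scale) against the summed CPM of a marker list (x axis, log scale) in each of the 64 pups; males are light (controls) or dark blue (treated), females orange (controls) or red (treated). Igf1 and Igfbp3 rose with thalamic markers (r = 0.76 and 0.79) and Igf2 with choroid plexus markers (r = 0.69); the other panels have r of 0.51 (Igfbp5), 0.58 (Igfbp2) and 0.75 (Igf2r with neocortical markers).

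The genes most like each member were sought by r over the 64 pups among 14702 genes with a mean of at least 1 CPM. For Igf2 they were Slc5a5 (r = 0.82), Kl (0.79), Col14a1 (0.78), Col8a2 (0.77) and Mfrp (0.77), of which Kl was on the choroid plexus list. For Igfbp2 they were Aldh2 (0.90), Mdk (0.89), Foxj1 (0.89), Slc4a2 (0.88) and LOC313641 (0.85). Foxj1 is the transcription factor of motile cilia, which ependymal cells carry. For Igf1 they were Clgn (0.89), Adrbk2 (0.89), Arhgap26 (0.87), B3galtl (0.87) and Ptpn3 (0.86). Igfbp3 had Lef1 (0.88), Wnt9b (0.87), Vipr2 (0.87), Rgs16 (0.86) and Slc6a4 (0.86), the last the serotonin transporter gene. The genes most like Igfbp5 were Nhsl1 (0.87), Paqr8 (0.86), Chrna4 (0.85), Zdhhc22 (0.85) and Col5a1 (0.84), and those most like Igfbp4 included Homer3 (0.81), Bmp7 (0.79), Id3 (0.79) and LOC100912012 (0.78).

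The receptors and Irs1 had other partners. For Igf1r they included Zc3h11a (0.89), Tulp4 (0.88), Kat6a (0.87) and Cers6 (0.86), and for Igf2r Sbf2 (0.89), Pfas (0.86), Peli1 (0.85), Ehmt1 (0.84) and Slain2 (0.81). For Insr they included Abce1 (0.92), Pum2 (0.91) and Rnmt (0.91). For Irs1 they were Lrrc58 (0.93), Fam126a (0.93), Fem1b (0.91), Alg10 (0.91) and Mbnl1 (0.91). Centred on group means, the r of the 5 genes most like each member were between 0.72 and 0.91 over all 10 members.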

How the data were processed

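Dorsal hippocampus RNA of 64 pups was sequenced in 66 stranded mRNA libraries. Per the labels and methods, the authors aligned reads with STAR to Rnor_6.0 and deposited raw read counts per gene from featureCounts; versions, strand setting and the treatment of multimapping reads are not given in the sources used here, and kallisto is listed with no role. The labels name another sequencer than the methods. Both libraries of a pup were summed, except in the fits that used the library name form. The counts were tested with edgeR 4.0.16 (TMM, filterByExpr, quasi-likelihood F test, Benjamini-Hochberg adjustment over all genes tested, adjusted p under 0.05), in R 4.3.3. The SE was the log2 fold change over the square root of F, and intervals are 1.96 SE to each side. CONF and CONSC were combined, as in the study. Levels are CPM of the library total, and r was computed on log2(CPM + 1). Tables and plots were made in Python 3.11.15. The fits were tested on simulated data with known changes.

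Replicates are pups, and single libraries in the fits with the library name form as a covariate. Pups of a sex and group came from separate litters except 1 litter with 2 Aro5 males and 1 with 2 Aro5 females. Litter numbers pair males and females, and a limma 3.58.1 voom fit with the litter as block gave a litter correlation of -0.17 in control pups, from 12 litters of which 7 held both sexes. Other alternatives were DESeq2 1.42.0, its size factors, a filter of at least 1 count, dissection from 10.30 until 13.20 h, library name form, controls of the same route alone, 1 pup per litter, and each pup left out in turn. Members, pathway lists and marker lists were chosen with earlier results of these data known. Named beyond the members were pathway genes that were called or had the smallest p of a comparison, markers that were called, and the 5 genes with the highest r to each member; some genes that this rule names are not reported here. The comparisons of the sexes within Aro5, BPA5 and CPF3 were added after seeing the data. The depth was 10644138 to 86206550 reads per library, and SEs cover the spread between pups. A limma-voom fit with no litter term was also added after seeing the data. No exon lengths were used.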

Additional observations from a re-analysis of the deposited data

Results flagged for a closer look

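In 6 of 130 sets of 4 to 7 pups (1 gene in 1 group) a single pup stood apart from the rest of its group by more than Dixon's limit, which chance alone exceeds in about 1 in 20 sets. Igf2 was 168 CPM in BPA0.5 male 72-4y, where the other pups had 99.6 to 105 CPM. Insr was 71.8 CPM in CPF1 male 16-7y (the others 61.0 to 61.5 CPM). Igfbp3 was 37.3 CPM in CONSC male 8-4y (the others 20.0 to 23.8 CPM), the pup whose omission brought Igfbp3 past the threshold in the Aro0.5 comparison. Igfbp4 was 46.9 CPM in BPA0.5 male 69-4y (the others 53.1 to 54.2 CPM), 47.0 CPM in CONF female N4-3x (the others 59.6 to 63.2 CPM) and 68.9 CPM in CONSC female 6-7x (the others 58.4 to 60.5 CPM). No member was called in the interaction tests of sex with treatment.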

How the results depend on the processing

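In the comparison of control females with control males 5 members were called. That number was 3 with the library name form as a covariate (Insr, Igfbp2, Igfbp4), 3 with the litter as replicate block in limma-voom (the same genes) against 4 in limma-voom with no litter term, 4 within the dissection window, 2 in libraries of form A alone (Insr, Igfbp2), and 4 to 5 when 1 pup was left out. For Aro5 males, 2 members were called in place of 0 within the dissection window, and 0 to 1 when 1 pup was left out. For Aro0.5 males the number was 0 to 1 with 1 pup left out. For the sexes within Aro5 the number was 3, with 4 within the window, 2 with 1 pup per litter and 2 to 4 with 1 pup left out. For the sexes within BPA5 it was 0 in place of 1 with genes of at least 1 count kept, 0 within the window, and 0 to 1 with 1 pup left out. Of the single fold changes under other alternatives 1075 kept their side of the threshold, 3 passed it and 12 no longer did. The sign changed in 59 of them, none of which was called in either fit. In each case the cause was not tested.

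Counts over all genes moved more. Aro5 males had 32 genes called, 101 with DESeq2, 818 within the window and 0 with the form as a covariate. BPA5 males had 31, 63, 8 and 0, and CPF3 males 26, 82 with DESeq2 and 0 with the form. Aro0.5 males had 20 genes called, 269 with DESeq2 and 0 within the window. The form fits in high-dose males rest on 1 form B control library and say nothing of stability. The control sexes had 4865, with 2967 under the form covariate and 1847 in form A alone. Leaving out single pups was not run for the interactions.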
